A study of Mus musculus with 12 samples.

Results

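The genes of the interleukin 1 (IL-1) and interleukin 18 (IL-18) systems were described in the leukocytes of MC38 tumors. They are 10 genes chosen by name for their role in these pathways, out of 31053 genes in the matrix: the ligands Il1a, Il1b and Il18, the antagonist Il1rn, the decoy receptor Il1r2, the binding protein Il18bp, the receptor chain Il18r1, the inflammasome sensor Nlrp3 and the caspases Casp1 and Casp4. All 10 were found by symbol, and all passed the minimum number of UMIs used below. MC38 is a colon carcinoma line of C57BL/6 mice, and its cells were injected subcutaneously on day 0. Mice received the EZH2 inhibitor PF-06821497 (EZH2i) at 100 mg/kg or vehicle, subcutaneously each day for 7 or 16 days, and tumors were taken on day 17. Cells were isolated with CD45 beads and profiled by 3' droplet scRNA-Seq, with 3 mice in each of 4 groups. Each barcode ends in the number of 1 of 12 libraries, which no sample label ties to a mouse or group. Libraries were not assigned to groups from the cell totals per group in the study's methods, so EZH2i and vehicle were not compared, the matrix counts as 1 pooled sample, and no p-value is given.

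IL-1β and IL-18 are made as inactive precursors that caspase 1 cuts after an inflammasome, such as the one built on NLRP3, has formed, while IL-1α is active as it is made. The IL-1 receptor antagonist, encoded by Il1rn, occupies the receptor without signalling, the type 2 receptor encoded by Il1r2 binds IL-1 without signalling, and IL-18 binding protein holds IL-18 in solution. In tumors these cytokines are known as products of myeloid cells, and IL-18 is known to act on T cells and NK cells that carry its receptor. Transcripts do not report cleavage or release, which were not measured.

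Cells were placed in 5 classes by the UMIs of lineage markers, none of which is one of the 10 genes. Of 128912 cells kept, 3992 were neutrophils, 7995 monocytes, 92824 macrophages, 1268 dendritic cells and 5460 lymphoid cells, and 17373 cells had too few or mixed markers and were left out. The median cell held 1346 UMIs among neutrophils, 4003 among monocytes, 5367 among macrophages, 5069 among dendritic cells and 3155.5 among lymphoid cells. Levels are given as CPM, the UMIs of a gene for each 1000000 UMIs of all cells of a class in a library. They are given for libraries with at least 50 cells of the class, which are 11 for neutrophils, 12 for monocytes, 12 for macrophages, 10 for dendritic cells and 11 for lymphoid cells. Markers fitted the names in the main, with C1qa in 99.6% of macrophages and 33.8% of neutrophils, and Csf3r in 63.4% of neutrophils and 15.2% of macrophages. The dendritic class was mostly of mature and type 1 cells, with Ccr7 in 74.3% and Xcr1 in 26.4% of its cells, and few had Cd209a (4.26%) or Siglech (2.997%).

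Some libraries stood apart. Libraries 1 to 6 held 127.8 to 209.4 CPM of 4 Y-linked genes and libraries 7 to 12 held 0 UMIs of them, although the study's methods name female mice. Library 4 had the highest level of a list of 12 immediate early and heat shock genes that tissue dissociation can induce, at 12514 CPM in monocytes and 7950 CPM in macrophages against medians of 5481 and 5526 CPM, and it gave 29 lymphoid cells. In neutrophils this list had a median of 14086 CPM and was highest in library 8 (17622 CPM), followed by library 4 (17010 CPM). Library 6, with 37413 cells the largest, had only 80 neutrophils, and these carried the highest summed levels of macrophage markers (2184 CPM against a median of 1090 CPM, with library 4 next at 2179 CPM) and of lymphoid markers (819 CPM against 168.7 CPM, with 372.1 CPM in library 9 next) of the neutrophils of any library. Barcode sequences were shared between libraries by 3775 cells (2.93%), at most 76 cells for any pair.

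The 3 ligand genes were compared at the sequence of their promoters, because Il1a and Il1b lie 54598 bases apart on chromosome 2 and were found at very different levels. Il1a (ENSMUSG00000027399) occupies chr2:129299610-129309972 and Il1b (ENSMUSG00000027398) chr2:129364570-129371139, both on the minus strand, and Il18 (ENSMUSG00000039217) lies on the plus strand at chr9:50554827-50581840 (GRCm38, GENCODE M21). The 100 bases before the start of each gene in the RefSeq table of GRCm38 are printed 5′ to 3′ (the RefSeq start of Il18 lies upstream of that of GENCODE), with the letters TATAAA, the core of the TATA box, in capitals.
Il1a, chr2:129309973-129310072, minus strand: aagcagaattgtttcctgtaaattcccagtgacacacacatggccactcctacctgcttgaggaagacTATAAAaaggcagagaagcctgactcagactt
Il1b, chr2:129371140-129371239, minus strand: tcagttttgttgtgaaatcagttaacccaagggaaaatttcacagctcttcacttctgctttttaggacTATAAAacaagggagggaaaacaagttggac
Il18, chr9:50554600-50554699, plus strand: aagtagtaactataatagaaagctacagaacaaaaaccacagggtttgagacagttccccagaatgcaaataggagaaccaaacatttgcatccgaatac
TATAAA started 32 bases before the start of Il1a and 31 bases before that of Il1b, and was absent from the stretch of Il18. On the sense strand, it started 21 to 40 bases before the start in 1.99% of 32851 promoter windows of all genes, and in 2 of 16 windows of the 10 genes, those of Il1a and Il1b. Anywhere in a window of 250 bases before to 50 bases after a start, on either strand, it was in 13.6% of all windows and in 4 of the 16, those of Il1a, Il1b, Il18 and Il1rn. This match describes letters and not a site in use.

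Il1b was by far the most abundant ligand transcript in every class of myeloid cells. Neutrophils carried 3829 to 14155 CPM (median 10473 CPM), monocytes 2249 to 5586 CPM (median 4156 CPM), macrophages 723 to 2222 CPM (median 1651 CPM), dendritic cells 723 to 1851 CPM (median 1004 CPM) and lymphoid cells 130.9 to 518.3 CPM (median 225.8 CPM). Neutrophils were above monocytes in 11 of 11 libraries and monocytes above macrophages in 12 of 12, without overlap between the ranges of the latter pair. Macrophages and dendritic cells overlapped, with macrophages higher in 9 of 10 libraries. That order is of the dendritic class as gated. Of the dendritic subsets described below, type 1 cells had a median of 565.7 CPM and mature migratory cells 2139 CPM over 9 libraries. Cd209a-positive cells carried 3549 to 5037 CPM over 6 libraries. The lowest neutrophil value was that of library 6, and the next lowest was 8325 CPM in library 4. Library 4 also had the lowest Il1b of monocytes (2249 CPM) and of macrophages (723 CPM), the classes in which it was highest for the dissociation list, and the part of dissociation in these values was not tested. Without library 4 the lowest values were 3265 CPM in monocytes and 966.5 CPM in macrophages.

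Since CPM is a share of the RNA of a class, the count per cell was set beside it. With all libraries pooled, the median neutrophil held 14 UMIs of Il1b, the median monocyte 12 and the median macrophage 5. Neutrophils had the fewest UMIs in all. Depth differed between libraries, and 1754 of the 3992 neutrophils were from library 4 and 30037 of the 92824 macrophages from library 6. Within libraries, the order of neutrophils and monocytes per cell was not fixed. In library 1, 169 neutrophils held 2868 UMIs of Il1b, 967 monocytes 25045 and 7153 macrophages 98161. In library 4, 1754 neutrophils held 28345, 1224 monocytes 9791 and 5372 macrophages 30245. At least 1 UMI of Il1b was found in 95.3% of neutrophils, 88.3% of monocytes, 79.5% of macrophages, 65.5% of dendritic cells (95% exact binomial interval 62.8 to 68.2%) and 22.4% of lymphoid cells (21.3 to 23.5%). With each cell thinned to 500 UMIs these shares were 89.5%, 67.3%, 43.9%, 28.1% and 5.86%. The lymphoid class is given as a class that should hold little Il1b, and B cells, of which 102 of 258 were in no class, had 11.6% at a median of 1362.5 UMIs. Free RNA itself was not measured, the lymphoid class was not uniform in Il1b, and the intervals cover counting error only. Transcripts were unevenly spread, as the tenth of macrophages with most Il1b held 49.2% of its UMIs and 18.8% of all UMIs of the class.

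**Figure D1:**
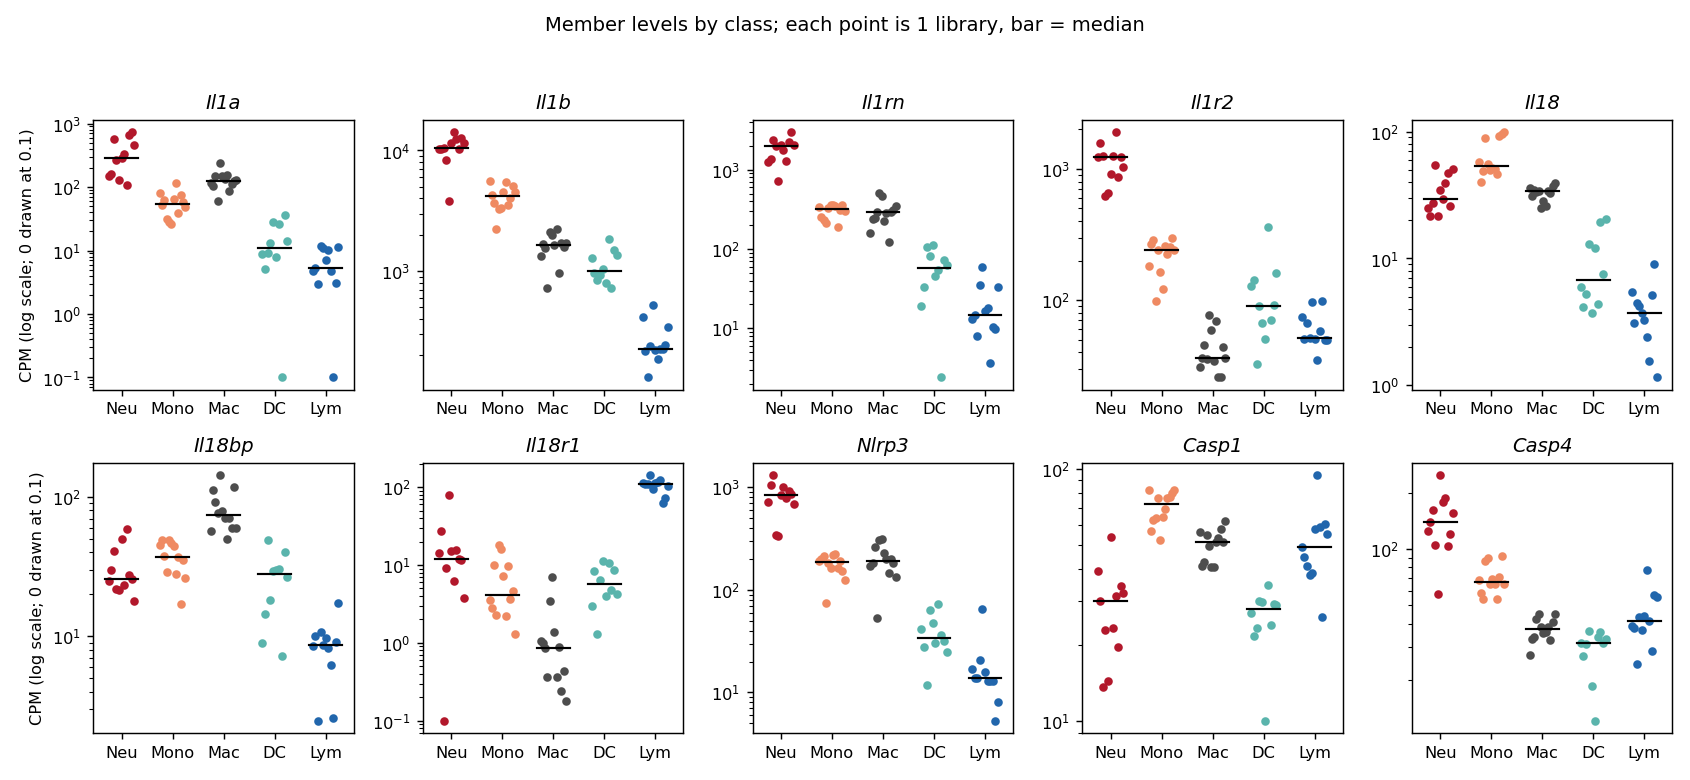
Levels of the 10 genes in CPM (log axis, 0 drawn at 0.1) by class, with 1 point for each library of at least 50 cells and a bar at the median. Neutrophils are highest for Il1a, Il1b, Il1rn, Il1r2, Nlrp3 and Casp4, monocytes for Il18 and Casp1, macrophages for Il18bp and lymphoid cells for Il18r1.

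Il1a was far below Il1b and had another order, with a median ratio of Il1a to Il1b UMIs of 0.0322 in neutrophils, 0.0131 in monocytes and 0.0786 in macrophages. Neutrophils carried 109.7 to 729.1 CPM (median 287.5 CPM), macrophages 60.2 to 239.2 CPM (median 125.3 CPM) and monocytes 25.7 to 117.3 CPM (median 54.9 CPM). Macrophages were above monocytes in 12 of 12 libraries, the reverse of Il1b, although the ranges overlapped. Neutrophils were above macrophages in 10 of 11 libraries, with library 6 as the exception. In dendritic cells Il1a reached 35.7 CPM at most and in lymphoid cells 11.8 CPM, with 1 library of each class at 0, which the comparison below sets to 3 counts.

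Il18 was a minor transcript, highest in monocytes. Monocytes carried 39.8 to 98.9 CPM (median 53.4 CPM) and macrophages 24.9 to 39.5 CPM (median 33.7 CPM), with no overlap and monocytes higher in 12 of 12 libraries. Neutrophils, at 21.6 to 54.3 CPM (median 29.2 CPM), were not set apart from macrophages, which were higher in 5 of 11 libraries. Dendritic cells (median 6.78 CPM) and lymphoid cells (median 3.69 CPM) were lowest. Unlike Il1b, Il18 was therefore not led by neutrophils in these libraries.

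The antagonist Il1rn followed the neutrophil pattern. Neutrophils carried 718.3 to 2951 CPM (median 1964 CPM), above the highest monocyte value of 359.3 CPM in every library. Monocytes (median 317.6 CPM) and macrophages (121.6 to 507.8 CPM, median 288.7 CPM) were not ordered, as monocytes were higher in 7 of 12 libraries. Dendritic cells carried 2.41 to 112.7 CPM (median 58.1 CPM) and lymphoid cells a median of 14.6 CPM. The sign of the order between monocytes and macrophages thus changed from library to library, while that between neutrophils and every other class did not.

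Il1r2, the decoy receptor, showed the largest median contrast between neutrophils and macrophages of the 10 genes. Neutrophils carried 626.4 to 1904 CPM (median 1243 CPM), monocytes 98.1 to 297.8 CPM (median 242.1 CPM) and macrophages 25.7 to 77.4 CPM (median 35.9 CPM), so that the 3 ranges did not overlap. Dendritic cells ranged from 32.5 to 362.6 CPM (median 90.8 CPM). Gm37347, a transcript on the same strand that GENCODE lists under the type TEC, overlaps Il1r2 but is not in the matrix. The antisense transcripts Il1bos and Gm16894 overlap Il1b and Il1r2, Gm14023 overlaps Il1a, Bco2 and Tex12 overlap Il18, and Numa1 overlaps Il18bp, each on the opposite strand.

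Il18bp was led by macrophages, at 49.9 to 142.5 CPM (median 73.9 CPM), which did not overlap with monocytes at 17.2 to 49.2 CPM (median 37.4 CPM). Neutrophils (median 25.8 CPM) and dendritic cells (median 28.2 CPM) were not ordered, and lymphoid cells were lowest with a median of 8.62 CPM. Macrophages held 92.4% of all UMIs of Il18bp against 81.5% of all UMIs.

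Il18r1, the ligand-binding chain of the IL-18 receptor, was a lymphoid transcript. Lymphoid cells carried 62.3 to 141.1 CPM (median 109.4 CPM), and macrophages 0.18 to 7.01 CPM (median 0.87 CPM). Neutrophils ranged from 0 to 79.0 CPM with a median of 11.8 CPM, on 95 UMIs in all. The highest of these values was that of library 6, whose neutrophils had the most lymphoid markers. The next highest was 27.1 CPM in library 2, where lymphoid markers were at 138.1 CPM against a median of 168.7 CPM. The part of lymphoid transcripts in these values was not tested. A UMI was found in 27.7% of lymphoid cells, 2.03% of neutrophils and 1.08% of macrophages, and after thinning to 500 UMIs in 6.04%, 0.60% and 0.12%.

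The inflammasome sensor and the caspases did not share a pattern. Nlrp3 was highest in neutrophils, at 337.6 to 1307 CPM (median 843.3 CPM), and alike in macrophages (53.6 to 317.1 CPM, median 190.3 CPM) and monocytes (75.3 to 222.8 CPM, median 187.0 CPM), with macrophages higher in 7 of 12 libraries. The lowest values of macrophages and monocytes were those of library 4. Casp1, which encodes the protease that cuts both precursors, was instead lowest in neutrophils and dendritic cells, with medians of 29.8 and 27.9 CPM. Monocytes carried 52.2 to 82.7 CPM of it (median 72.7 CPM), above macrophages (40.7 to 62.3 CPM, median 51.4 CPM) in 12 of 12 libraries, and lymphoid cells had a median of 49.0 CPM. Casp4, which encodes the mouse caspase that senses lipopolysaccharide in the cytosol and lies 1563 bases from Casp1 on chromosome 9, was highest in neutrophils at 57.5 to 249.2 CPM (median 140.8 CPM). It had medians of 67.1 CPM in monocytes, 41.1 CPM in lymphoid cells, 37.3 CPM in macrophages and 31.4 CPM in dendritic cells.

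Each class was then compared with macrophages within libraries. A gene was called when its CPM differed by at least 2-fold in the same direction in every library with 50 cells of both classes, a class with 0 UMIs being set to 3 counts as an upper limit. In neutrophils, 1 of the 10 genes was called higher, Il1r2, against a background of 2.07% of 13673 genes, and 0 were called lower against 1.56%. Il1r2 was higher by 11.2 to 74.1-fold (median 28.3-fold, n = 11 libraries). Without library 6, the called genes were 5, Il1b, Il1rn, Il1r2, Nlrp3 and Casp4, against a background of 3.63%. Over all 11 libraries the median ratio was 6.80-fold for Il1b (1.94 to 12.8-fold), 7.75-fold for Il1rn (1.57 to 10.5-fold), 4.96-fold for Nlrp3 (1.06 to 6.46-fold) and 4.24-fold for Casp4 (1.49 to 7.03-fold), and each was higher in 11 of 11 libraries. The low end of all 4 ranges is library 6, whose neutrophils also had the lowest level of the dissociation list (6185 CPM against the median of 14086 CPM and against 5410 CPM in its macrophages), and the part of dissociation in these ratios was not tested. Without library 3, in which neutrophils had no UMI of Il18r1, Il18r1 was called higher with Il1r2, against a background of 2.38%. The reverse held for Il18bp, lower in neutrophils in 11 of 11 libraries with a median log2 difference of -1.18, and for Casp1, lower in 10 of 11 with a median of -0.95. Over all genes readable in every library the median log2 difference was -0.54.

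**Figure D2:**
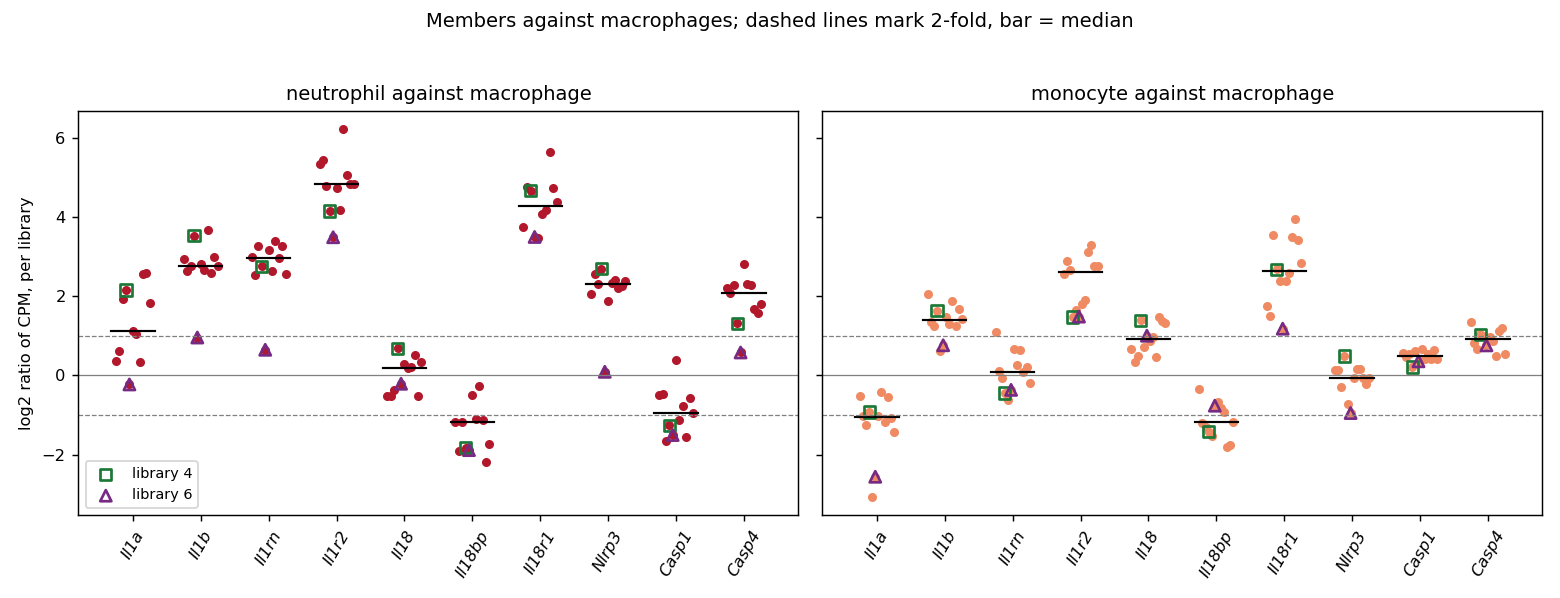
Log2 ratio of the CPM of neutrophils (left) and monocytes (right) to that of macrophages for the 10 genes, with 1 point for each library in which both classes had a UMI, a bar at the median and dashed lines at 2-fold. Open squares mark library 4 and open triangles library 6, which gives the lowest neutrophil ratio of Il1a, Il1b, Il1rn, Il1r2, Nlrp3 and Casp4.

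In monocytes, Il1r2 and Il18r1 were called higher than in macrophages (2 of 10, background 1.7%) and 0 genes were called lower (background 1.13%). Il1r2 was higher by 2.78 to 9.87-fold (median 6.13-fold, n = 12). The call of Il18r1 was lost under 5 alternatives (the marker minimum doubled, the limit on other markers halved, a mitochondrial limit of 5%, without the 5% of cells with most UMIs, and with each cell weighted the same). It was made at levels of 4.13 and 0.87 CPM that are small beside the 109.4 CPM of lymphoid cells. Lymphoid markers were highest in library 6 in both classes, at 245.1 CPM in monocytes and 146.9 CPM in macrophages. Their part in this call was not tested. Il1b was higher in monocytes in 12 of 12 libraries, with a median of 2.61-fold and a lowest value of 1.54-fold. Il18 (median 1.88-fold), Casp4 (1.89-fold) and Casp1 (1.41-fold) were also higher in 12 of 12 libraries, and Il1a and Il18bp lower in 12 of 12, at medians of 0.485 and 0.440 of the macrophage level.

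In dendritic cells, 0 of the 10 genes were called higher than in macrophages (background 3.54%), and 3 were called lower, Il1a, Il1rn and Nlrp3 (background 3.92%). Their median levels were 0.0951, 0.185 and 0.197 of that of macrophages in the same libraries. Il1b was at 0.773 of the macrophage level and not called, and Il1r2 was higher in 9 of 10 libraries. In lymphoid cells, Il18r1 was called higher (1 of 10, background 4.84%), by a median of 126.1-fold over 11 libraries, and 6 genes were called lower, Il1a, Il1b, Il1rn, Il18, Il18bp and Nlrp3 (background 6.25%). Casp1 and Casp4 were not called, at median ratios of 0.969 and 1.14 to macrophages. The 4 comparisons share the macrophages, so they are not independent of each other.

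The other genes of the pathway, a list of 36 genes in the matrix, were treated in the same way. In neutrophils, 6 of 32 tested genes were called higher than in macrophages, Il1f9, Il1rap, Il18rap, Irak2, Irak3 and Mefv (background 2.07%), and 1 was called lower, P2rx7 (background 1.56%). Il1f9, which encodes IL-36γ, was at a median of 263.7 CPM in neutrophils and 0.20 CPM in macrophages. Il1rap, the shared accessory chain of the IL-1 receptors, was at 178.4 and 6.95 CPM, and Mefv, which encodes the inflammasome sensor pyrin, at 86.6 and 8.03 CPM. Irak2, a signalling kinase, was at 171.6 and 39.7 CPM, and Irak3, known as a brake on this signalling, at 55.2 and 11.9 CPM. The signalling receptor Il1r1 was at or near 0 in all 5 classes, with medians of 0 to 2.27 CPM. P2rx7, the ATP-gated channel upstream of NLRP3, was highest in macrophages (47.8 CPM) and was called lower in all 4 other classes. The adaptor Pycard was at 381.0 CPM in monocytes, 299.2 CPM in macrophages and 133.9 CPM in neutrophils, and the pore-forming Gsdmd at 74.9, 51.7 and 39.2 CPM.

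In monocytes, 3 of 31 tested genes of this list were called higher than in macrophages, Il1rap, Il18rap and Mefv (background 1.7%), and 1 lower (background 1.13%). In dendritic cells, of 31 tested, Sigirr was called higher (background 3.54%), and Irak3, Naip2, Ninj1 and P2rx7 lower (background 3.92%). In lymphoid cells, of 31 tested, Il1rl1, Il18rap and Sigirr were called higher (background 4.84%) and the same 4 genes as in dendritic cells lower (background 6.25%). Il18rap, the second chain of the IL-18 receptor, was at 93.4 CPM in neutrophils and 56.9 CPM in lymphoid cells, so that neutrophils carried more of this chain than of Il18r1 (11.8 CPM), whereas lymphoid cells carried more Il18r1 (109.4 CPM). Both are levels of 3' counts, and the capture of a gene by the assay is not known.

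Macrophages were most of the cells and, with the libraries pooled, held 81.5% of all UMIs and most transcripts of 8 of the 10 genes. Among these genes, macrophages were below that share for Il1b (67.8%), Il1rn (77.7%), Il18 (80.3%), Casp1 (79.9%) and Casp4 (73.1%). Macrophages were above it for Il1a (88.7%), Il18bp (92.4%) and Nlrp3 (84.1%). They held under 50% in library 4 for Il1b (34.0%), Il1rn (48.6%) and Nlrp3 (48.4%) and in library 8 for Il1b (48.4%). Macrophages held 67.8% of all UMIs of Il1b in the kept cells, monocytes 12.4% and neutrophils 6.61%. Of all UMIs, monocytes held 5.45% and neutrophils 1.21%. The neutrophil share of Il1b ranged from 0.243% to 31.9% between libraries with a median of 3.17%. Neutrophils held 14.8% of the UMIs of Il1r2 and macrophages 47.1%, below the macrophage share of all UMIs. Cells in no class held 19.3% of the UMIs of Il1r2 and 21.6% of those of Il18r1, against 7.93% of all UMIs. Lymphoid cells held 48.2% of the UMIs of Il18r1 and macrophages 23.4%, or 58.1% and 15.1% without library 6, in which macrophages held 52.4%. These shares depend on how many cells of a class the digest and the CD45 beads kept, and fewer cells of a class cannot be told apart from a loss in preparation.

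**Figure D3:**
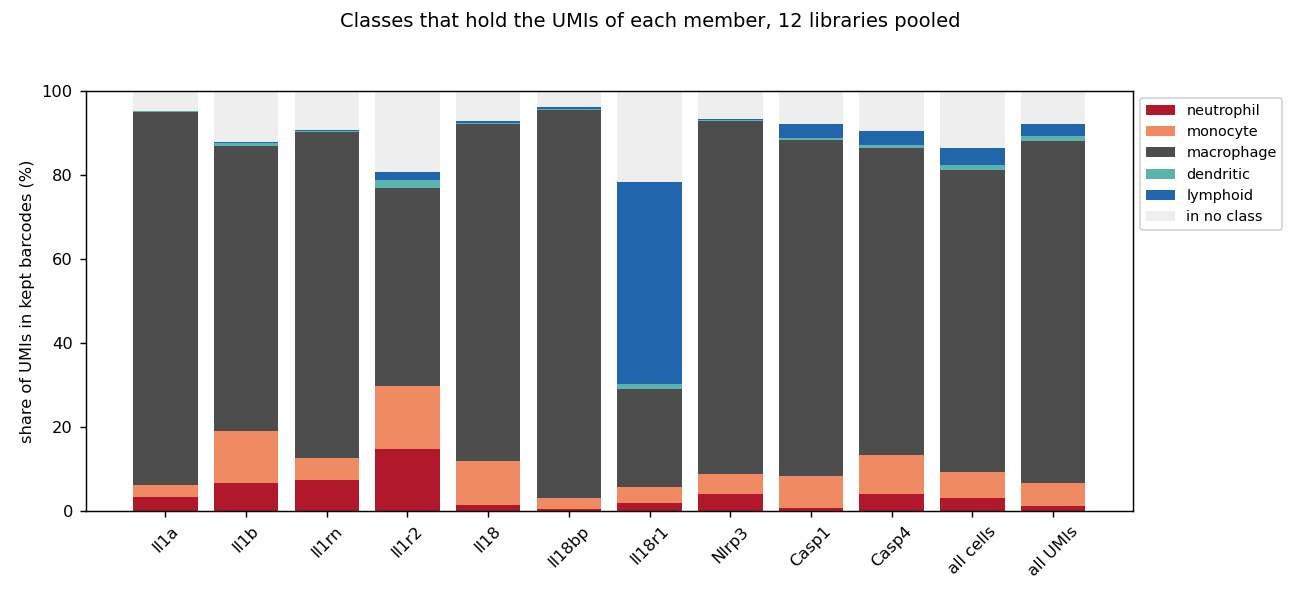
Share of the UMIs of each of the 10 genes held by the 5 classes and by cells in no class, with the 12 libraries pooled, beside the shares of all cells and of all UMIs. Macrophages hold 81.5% of all UMIs, and 67.8% or more of the UMIs of every gene but Il1r2 (47.1%) and Il18r1 (23.4%).

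The ratio of inhibitor to ligand transcripts was compared between classes for each system. Il1rn had fewer UMIs than Il1b in every library of every class. The ratio of Il1rn to Il1b UMIs was 0.103 to 0.236 in neutrophils (median 0.178), 0.118 to 0.404 in macrophages (median 0.165) and 0.0538 to 0.107 in monocytes (median 0.0686). The highest macrophage ratio was that of library 4, where Il1b was lowest. Il18bp had more UMIs than Il18 in macrophages in 12 of 12 libraries, at a ratio of 1.51 to 4.22 (median 2.39). In monocytes the ratio was 0.187 to 1.24 (median 0.774) and above 1 in 1 of 12 libraries, and in neutrophils it was 0.358 to 1.5 (median 1, above 1 in 4 of 10 libraries), with 239 UMIs of Il18bp and 412 of Il18 in all, a pooled ratio of 0.580. The ranges of monocytes and macrophages did not overlap for Il18bp to Il18. A ratio above 1 was not particular to macrophages. Its median was 2.5 in dendritic cells (0.375 to 9.5, above 1 in 8 of 9 libraries). In lymphoid cells it was 2.44 (0.556 to 3.47, above 1 in 6 of 8 libraries). These 2 classes had only 77 and 81 UMIs of Il18 in all. Each ratio was taken within the same cells, but between genes that the assay may capture unequally, so the ratio between classes can be read and its value alone cannot.

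**Figure D4:**
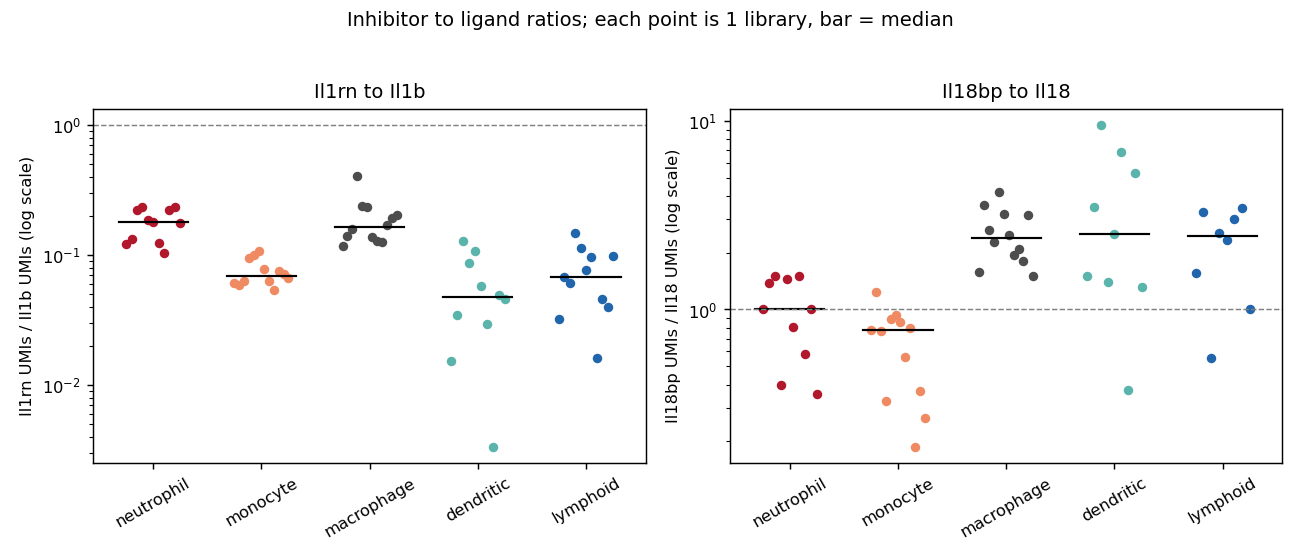
Ratio of UMIs of Il1rn to Il1b (left) and of Il18bp to Il18 (right) on log axes by class, with 1 point for each library with over 3 UMIs of the ligand and at least 1 of the inhibitor, and a bar at the median. All points of Il1rn to Il1b lie below 1, and all macrophage points of Il18bp to Il18 lie above 1.

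Within neutrophils, Il1b was at like levels in the subsets. Cells with Retnlg, a transcript of mature neutrophils (n = 1801), had a median of 10752 CPM of Il1b, and cells with Ccl3 and no Retnlg (n = 1564) 10731 CPM over the 10 libraries with both, with either subset higher in 5 of 10. Il1rn differed, and was higher in the Ccl3-positive cells in 10 of 10 libraries, with medians of 2488 CPM against 1770 CPM. Il1a was higher in them in 8 of 10 libraries. Cells with neither transcript (n = 627) had the most Il1r2, 2026 CPM, but were also the shallowest, with a median of 845 UMIs per cell.

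Within monocytes, cells high in Ly6c2, the inflammatory type (n = 3987), were set against cells with the patrolling markers Treml4 or Ace and no Ly6c2 (n = 249) in the 4 libraries with at least 20 of both. Il18, Il18bp and Il1rn were higher in the Ly6c2-high cells in 4 of 4 libraries, with medians of 67.6 against 31.5 CPM, 55.0 against 24.3 CPM and 386.7 against 257.6 CPM. Macrophage markers were also higher in the Ly6c2-high cells, at 1710 CPM against 768.3 CPM, and their part in these differences was not tested. Il1b was instead higher in the patrolling cells in 3 of 4 libraries, at 5581 against 4977 CPM.

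Within macrophages, the genes did not share 1 order over cells high in Arg1 (n = 21292), in Cxcl9 (n = 13629) and in Folr2 and Mrc1 (n = 9413). Arg1 marks macrophages that break down arginine, Cxcl9 those exposed to interferon γ, and Folr2 with Mrc1 macrophages of resident type. Il1b was lowest in the Folr2 Mrc1 cells in 12 of 12 libraries, with a median of 952.4 CPM against 1614 CPM in the Arg1-high and 1776 CPM in the Cxcl9-high cells, and so was Il1r2, at 12.3 CPM against 36.8 and 40.2 CPM. Il1rn was highest in the Arg1-high cells, with a median of 433.3 CPM, above the Cxcl9-high cells (286.4 CPM) in 11 of 12 libraries and above the Folr2 Mrc1 cells (197.3 CPM) in 12 of 12. Monocyte markers stood lowest in the Folr2 Mrc1 cells too, at 461.1 CPM against 722.3 CPM in the Arg1-high and 913.3 CPM in the Cxcl9-high cells, and their part in the order of Il1b and Il1r2 was not tested. The IL-18 genes had other orders.

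Il18bp was highest in the Cxcl9-high cells in 12 of 12 libraries, at 134.3 CPM against 73.1 CPM in the Arg1-high and 82.9 CPM in the Folr2 Mrc1 cells. Casp1 was also highest there in 12 of 12 libraries, at 65.1 CPM against 44.2 and 54.9 CPM. Il18 was instead highest in the Folr2 Mrc1 cells, at 45.4 CPM, above the Cxcl9-high cells (36.9 CPM) in 11 of 12 libraries and above the Arg1-high cells (29.1 CPM) in 12 of 12. Nlrp3 (162.4 to 191.7 CPM) and Il1a (119.3 to 138.7 CPM) differed little between the medians of the 3 subsets. Cycling macrophages (n = 15946) had less Il1rn than the Arg1-high cells in 12 of 12 libraries, with a median of 190.9 CPM.

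**Figure D5:**
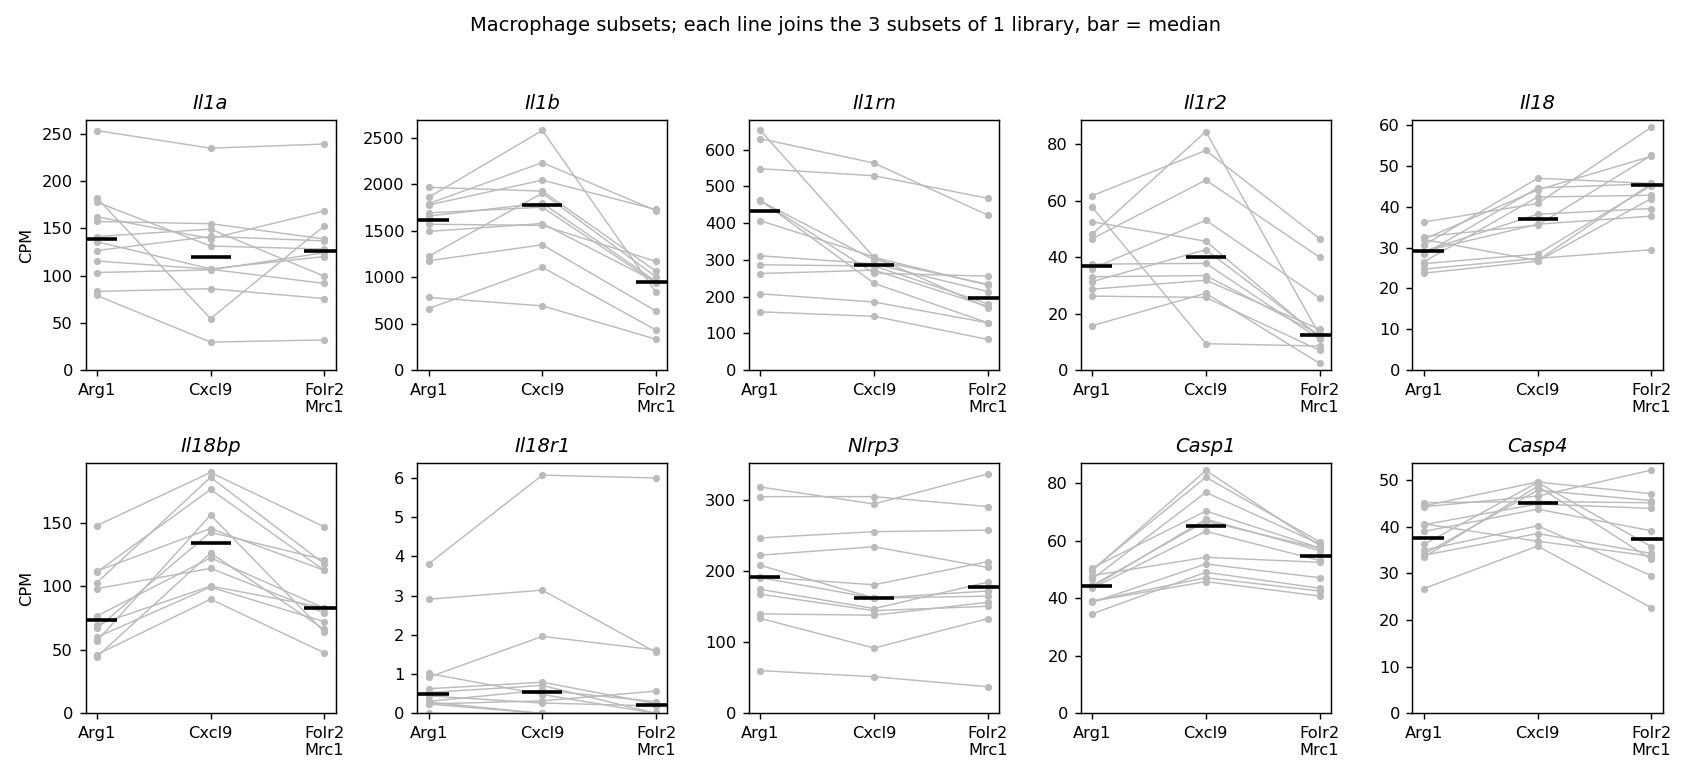
Levels of the 10 genes in CPM in macrophages high in Arg1, in Cxcl9 or in Folr2 and Mrc1, with a grey line for each of the 12 libraries and a bar at the median. Il18bp and Casp1 peak in the Cxcl9-high cells of every library, and Il1b and Il1r2 are lowest in the Folr2 Mrc1 cells of every library.

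Within dendritic cells, the subsets differed in most of the genes. Type 1 cells, with Xcr1 or Clec9a (n = 673), had a median of 565.7 CPM of Il1b and mature migratory cells, with Ccr7, Fscn1 or Ccl22 (n = 1388), 2139 CPM over the 9 libraries with both, and the mature cells were higher in 9 of 9. Il1rn, Il1r2, Il18bp, Il18r1, Casp1 and Casp4 were also higher in the mature cells in 9 of 9 libraries. Il1r2 was at 260.6 CPM against 49.9 CPM, Il1rn at 73.2 CPM against 7.13 CPM and Il18r1 at 6.97 CPM against 0 CPM. Il18 went the other way, at 17.6 CPM in type 1 cells and 5.04 CPM in mature cells, and was higher in type 1 cells in 9 of 9. Type 1 cells also carried more monocyte markers, 1374 CPM against 605.1 CPM in mature cells, and their part in the level of Il18 was not tested. Of the 673 type 1 cells, 249 were in the dendritic class, 82 in the monocyte class and 342 in no class, and of the 1388 mature cells these were 795, 90 and 503. Cd209a-positive cells (n = 224) carried 4084 CPM of Il1b, near the 4156 CPM of monocytes, and 109 of the 224 fell into the monocyte class. All 224 together carried 3710 CPM of monocyte markers, against a median of 8562 CPM in the monocyte class. Il1rn in type 1 cells, found in 8.17% of them, was close to the 6.69% of CD8 T cells.

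Within lymphoid cells, Il18r1 was carried by T cells and NK cells. Its median was 92.4 CPM in CD8 T cells (n = 2629), 140.3 CPM in CD4 T cells without Foxp3 (n = 721) and 58.1 CPM in NK cells (n = 206, 2 libraries), and 0 of 258 B cells had a UMI, which allows a share of cells with a UMI of up to 1.16% and sets no limit on cells that express the gene. CD4 T cells were above CD8 T cells in 7 of the 9 libraries with both, with medians of 140.3 and 94.7 CPM there. The 38 cells with Foxp3 were too few per library for a range, and over all libraries 55.3% of them had a UMI of Il18r1 and 26.3% one of Il1rl1, the IL-33 receptor. A cell without a UMI of Foxp3 can still express it, and the CD4 T cells without Foxp3 had a median of 3665 UMIs per cell. Il1r2 was also higher in these CD4 T cells than in CD8 T cells, at 184.1 CPM against 27.5 CPM, in 9 of 9 libraries. Il1b was higher in the same cells in 9 of 9 libraries, at 662.6 CPM against 218.1 CPM, and over all their cells macrophage markers stood at 313.5 and 295.8 CPM, dendritic markers at 241.4 and 147.0 CPM and the dissociation list at 3743 and 2175 CPM. The dendritic list holds Ccr7, which the study counts among memory-associated genes in its CD8 T cells and which was at 78.0 CPM in the lymphoid class. Ccr7 was not counted apart in CD4 and CD8 T cells. The part of dendritic cell transcripts and of dissociation in the Il1r2 and Il1b levels of these T cells was not tested.

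The genes most like 4 of the members over the classes and libraries were found by Pearson's r of log2(CPM + 10) over 56 pairs of class and library, among 10888 genes. These pairs share libraries, and the classes drive the values, so r is a description. For Il1b they were Fgr, Il13ra1, Osm, Ndel1 and Ptafr (r = 0.951 to 0.955), and for Il1rn they were Cd300lf, Ets2, Ptgs2, Cxcl2 and Rnf149 (r = 0.956 to 0.970). For Il18 they were Irf7, Ifi204, Ifitm3, Ifi207 and Ccl9 (r = 0.903 to 0.922), most of them genes known to be induced by interferon. For Il18r1 they were Thy1, Cd3d, Sh2d2a, Nkg7 and Cd3e (r = 0.964 to 0.967), genes of T cells and NK cells, of which Cd3d and Cd3e also define the lymphoid class.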

How the data were processed

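The study's CD45+ cells were sequenced with 10x Genomics 3' chemistry. The authors deposited UMI counts for 12 libraries as 1 matrix without normalization; its header names software version 3.0.2, whereas the submitters' processing notes name Cell Ranger 2.1.1, Seurat and mm10. Barcodes passed the filter of the study's methods (more than 200 genes, fewer than 5000, and no more than 10% of UMIs from mitochondrial genes). It kept 128912 of 140639 barcodes, fewer than the cells of the 4 groups together that the study's methods report after initial quality control. A class needed at least 5 UMIs (macrophages 10) of at least 2 of its markers, and other lists at most 50% of that, with a limit 4 times as wide for monocyte markers in dendritic and lymphoid cells, which express some of them. These gates and the subset rules were set after the data had been seen, and the members and lists were chosen with earlier results of these data known. Dendritic and lymphoid subsets were taken from all kept cells with at most 5 UMIs each of macrophage and neutrophil markers. Barcodes with mixed markers were left out in place of a doublet caller. Genes needed 100 UMIs in the 2 classes compared. All 10 genes, the called genes of the pathway list, and Pycard, Gsdmd and Il1r1 are named. Kept cells held 20580550 to 100452772 UMIs per library. Subset markers needed 1 to 3 UMIs (in macrophages, except cycling cells, also a minimum share of the UMIs of the cell), and subsets 20 cells in a library. Scripts ran in Python 3.11.15 with pandas 2.3.3, scipy 1.17.1, numpy 2.4.6 and, for the figures, matplotlib 3.10.9.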

Additional observations from a re-analysis of the deposited data

How the results depend on the processing

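The level of each gene in its highest class was recomputed under alternatives, as were some ratios and shares and the calls. The ratios were Il1rn to Il1b in neutrophils and macrophages and Il18bp to Il18 in macrophages. The shares were those of Il1b in neutrophils and macrophages and of Il18r1 in lymphoid cells. These values moved by less than 1 SD between libraries under all alternatives tried for them. Other levels, ratios and shares, and those of subsets, were not recomputed. Calls moved as follows. The number of genes called higher in neutrophils than in macrophages (1) became 2 with the marker minimum doubled, with the limit on other markers halved, without the 5% of cells with most UMIs and with each cell weighted the same (backgrounds of 2.12% to 2.37%), 3 at a 1.5-fold limit (3.48%), 6 with at least 100 cells of a class (4.1%) and 6 in libraries 7 to 12 (4.83%), and ranged from 1 to 5 when 1 library was left out (3.63% without library 6). In libraries 1 to 6, 1 gene (Il18bp) was called lower in neutrophils (1.97%). The number called higher in monocytes (2) became 1 with the marker minimum doubled, the other limit halved, a mitochondrial limit of 5%, without the cells with most UMIs and with equal weights, each time without Il18r1 (1.55% to 1.72%), and 3, with Il1b, at 1.5-fold (3.1%) and in libraries 7 to 12 (2.29%). In dendritic cells, 1 gene was called higher in libraries 7 to 12 (4.84%) and 1 at 1.5-fold (5.31%), and the 3 called lower became 5 at 1.5-fold (background 6.51%) and 4, with Il18, with the other limit halved, without the cells with most UMIs, with equal weights, with at least 100 cells and in libraries 1 to 6 (4.1% to 5.26%). The cause was not tested. No paired analysis was possible because no label ties the library numbers to mice or treatment groups and none was assigned; classes were compared within libraries. Depth limits Il18r1 outside lymphoid cells, which rests on few UMIs. In dendritic cells, Il1b had 10861 UMIs and Il1r2 1263, and depth limits the other members, which had from 57 (Il18r1) to 529 UMIs (Il1rn).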

Other observations

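Among cells outside the 5 classes, 29 cells with basophil or mast cell markers had a UMI of Il1rl1, which encodes the receptor for IL-33, in 82.8% of cells, at 897.7 CPM over all libraries, and 0 of them had a UMI of Il1r2, which allows a share of cells with a UMI of up to 10.3% and sets no limit on cells that express it. The 67 cells with tumor or stromal markers had Il1b at 249.0 CPM in the 1 library with at least 20 of them, close to the 225.8 CPM of lymphoid cells, and Il33 at 241.3 CPM there.

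The level of Il18 in monocytes fell into 2 ranges over the 12 libraries. It was 88.4 CPM in library 4, 91.9 CPM in library 10, 95.4 CPM in library 11 and 98.9 CPM in library 12. In libraries 1, 2, 3, 5, 6, 7, 8 and 9 it was 57.5, 39.8, 49.3, 55.3, 49.9, 51.5, 50.3 and 46.3 CPM. In macrophages of all 12 libraries it lay between 24.9 and 39.5 CPM. Monocytes of libraries 4, 10 and 12 also had the most neutrophil markers, at 381.0, 484.0 and 290.8 CPM, against 82.5 to 147.3 CPM in the others, with 137.1 CPM in library 11, and their part in these levels was not tested. No sample label ties a library to a treatment, and no treatment was assigned to these libraries.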
